A study of Mus musculus with 4 samples.

Results

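The genes described here are 10 costimulatory receptors and ligands of immune cells, Cd80, Cd86, Cd40, Icosl, Icos, Cd28, Tnfsf9, Tnfrsf9, Tnfrsf4 and Tnfrsf18. They were taken by symbol from the 32285 genes of the files, and all 10 were present. The cells were live CD45+ immune cells sorted from digested C57BL/6 mouse hearts without atria, 7 days after surgery on postnatal day 2. A library was made of each of 4 groups with the 10x Genomics 3' v3 chemistry, which counts single RNA molecules (unique molecular identifiers, UMIs) per cell. In KO_MI the PD1 gene (Pdcd1) was deleted on both alleles and the heart was infarcted (myocardial infarction, MI). In KO_sham both alleles were deleted and the surgery was a sham operation. In Het_MI 1 allele was deleted and the heart was infarcted. In Het_sham 1 allele was deleted and the surgery was a sham operation. Every group therefore carries a Pdcd1 deletion on at least 1 allele, and no group with 2 intact alleles was analysed here. How many hearts went into a library, and which part of Pdcd1 was deleted, is not given in the labels.

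A T cell that meets its antigen needs a further signal to divide and to make cytokines. CD28 on T cells receives it from the B7 proteins CD80 and CD86 on antigen-presenting cells, and the related receptor ICOS receives it from ICOS ligand. A further set belongs to the tumour necrosis factor (TNF) receptor superfamily: CD40 on B cells, dendritic cells and macrophages, and 4-1BB (Tnfrsf9), OX40 (Tnfrsf4) and GITR (Tnfrsf18) on activated and regulatory lymphocytes, which signal through TRAF adaptors to NF-kB. The ligand of 4-1BB is 4-1BBL (Tnfsf9). CD80 and CD86 also bind the inhibitory receptor CTLA-4, and CD80 binds PD-L1, the ligand of PD1, on the same cell.

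The libraries held 72002420 UMIs in KO_MI, 66587021 in KO_sham, 60461796 in Het_MI and 52701847 in Het_sham. After filters on UMIs, genes and mitochondrial RNA, 7104, 6407, 5074 and 5376 cells were kept in that order. Each cell was assigned to a type by marker genes, none of them among the 10. Droplets with markers of a second lineage made up 26.8% of the assigned cells in KO_MI, 18.7% in KO_sham, 22.1% in Het_MI and 19.6% in Het_sham, and were left out, which left 4775, 4867, 3672 and 3917 cells. Between libraries, 74 cell barcodes were shared, and 85 of the cells used carried 1 of them. Macrophages were the most numerous type, with 2601, 2372, 1948 and 1370 cells in KO_MI, KO_sham, Het_MI and Het_sham. B cells numbered 670, 1013, 723 and 901, and T cells (outside the thymocyte-like, regulatory, gamma-delta and NK gene-bearing T cells) 110, 116, 86 and 131. Several of the types that carry the members were small: migratory dendritic cells (DCs, the Ccr7-expressing cells that travel to lymph nodes) numbered 31, 10, 17 and 3, and regulatory T cells 8, 11, 7 and 6. The droplets left out for a second lineage were unevenly spread over types. For T cells they numbered 160 in KO_MI, 110 in KO_sham, 90 in Het_MI and 84 in Het_sham. For regulatory T cells they numbered 16, 10, 11 and 5 in that order.

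Levels are given as CPM (counts per 1000000), that is a gene's UMIs scaled to 1000000 UMIs of its cell type and library. They are compared between cell types and libraries and not between genes. Between cell types the 4 libraries served as replicates, and UMIs summed per library and type were tested with edgeR's quasi-likelihood test, with the library as a block and Benjamini-Hochberg adjustment over all genes tested, at an adjusted p of 0.05. Fold changes are log2 values with their standard error (SE). Between conditions there was 1 library per group, so differences have no replicate check and no p-value. They are given as log2 ratios of CPM with exact 95% intervals that cover counting error only, and a ratio is called past 1.5-fold in either direction where at least 20 UMIs were counted over both libraries.

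In the GRCm38 assembly with the GENCODE M21 annotation, the genes of the CD28 family lie side by side on chromosome 1, Cd28 at chr1:60716800-60773359 and Icos at chr1:60977927-61000320, both on the plus strand, with Ctla4 as the nearest coding gene of each. Icos overlaps the annotated gene Gm37039 on the same strand, so reads of those genes could be confused. Cd80 (chr16:38455561-38496335, plus strand) and Cd86 (chr16:36603869-36666081, minus strand) share chromosome 16. Cd40 lies at chr2:165055627-165072948, Icosl at chr10:78069302-78083913 and Tnfsf9 at chr17:57105325-57107757. The other TNF receptor genes share chromosome 4, Tnfrsf9 at chr4:150914562-150946102, most of which Camta1 overlaps on the opposite strand, Tnfrsf4 at chr4:156013843-156016612, with Sdf4 233 bases away, and Tnfrsf18 at chr4:156026164-156028895. Tnfsf9 and Tnfrsf18 are each overlapped by a gene model on the opposite strand, Gm11110 and Gm16008.

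Cd80, Tnfrsf9 and Tnfrsf4 were among the members higher in migratory DCs than in type 1 conventional DCs, and for these the 250 bases before an annotated start are shown (RefSeq, GRCm38.p6, plus strand, 5' to 3'). Capitals mark a match to the AP-1 motif TGANTCA, searched on both strands, which 6.75% of all 32851 windows in the table hold. The NF-kB motif was searched in the same way, as a pattern of letters on both strands, and 3.9% of all windows hold it. No match to it was found in these 3 windows. The Cd80 window, chr16:38458683-38458932, holds an AP-1 match that begins 42 bases before the start. The windows of Tnfrsf9 (chr4:150919905-150920154) and Tnfrsf4 (chr4:156013445-156013694) hold neither motif. The Cd80 and Tnfrsf9 windows lie inside the GENCODE spans given above, so these starts are not the first bases of those spans.
Cd80 start: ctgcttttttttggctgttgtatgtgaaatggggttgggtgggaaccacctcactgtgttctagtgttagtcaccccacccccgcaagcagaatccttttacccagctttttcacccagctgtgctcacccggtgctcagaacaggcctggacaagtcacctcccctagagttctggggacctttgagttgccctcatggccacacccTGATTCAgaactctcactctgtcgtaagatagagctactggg
Tnfrsf9 first start: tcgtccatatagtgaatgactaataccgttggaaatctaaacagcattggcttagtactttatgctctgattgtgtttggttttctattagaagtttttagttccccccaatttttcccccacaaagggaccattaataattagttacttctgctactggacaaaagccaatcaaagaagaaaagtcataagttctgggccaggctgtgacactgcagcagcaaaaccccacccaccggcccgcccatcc
Tnfrsf4 start: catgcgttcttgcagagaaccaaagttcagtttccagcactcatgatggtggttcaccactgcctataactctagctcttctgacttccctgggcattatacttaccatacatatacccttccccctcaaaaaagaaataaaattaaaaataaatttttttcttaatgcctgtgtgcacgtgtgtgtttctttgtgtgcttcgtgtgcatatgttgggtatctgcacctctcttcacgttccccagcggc
A second annotated start of Tnfrsf9 differs. Its window also lies inside the span of the gene, and 81 of its 250 bases are in annotated exons. Of its window only 30 bases are shown, chr4:150927947-150927976, in which capitals mark 2 overlapping matches to the NF-kB motif between 43 and 33 bases before that start. That window also holds an AP-1 match, TGAGTCA, that begins 15 bases before the start.
Tnfrsf9 second start: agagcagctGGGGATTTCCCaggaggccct
A match to a motif is a description of the letters and was not tested as a binding site.

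The B7 ligands were carried by the myeloid cells, each with its own order of types. Macrophages held 85.2% of all Cd86 UMIs of the cells used and 53.2% of all Cd80 UMIs. The level of Cd86 was highest in macrophages, at 196 CPM in KO_MI, 255 in KO_sham, 244 in Het_MI and 229 in Het_sham. Type 1 conventional DCs (cDC1, the cross-presenting DCs) followed with 187, 177, 154 and 122 CPM, and the ranges of those types over the libraries did not overlap. Classical monocytes had 141, 177, 158 and 160 CPM, overlapping with cDC1. Lower levels were found in non-classical monocytes (105 to 138 CPM), migratory DCs (121 to 163 CPM, apart from Het_sham with 1 UMI), type 2 conventional DCs (cDC2, 78.7 to 88.4 CPM) and B cells (55.5 to 63.4 CPM). A Cd86 UMI was found in 70.3% of macrophages in KO_MI (exact 95% interval 68.5 to 72.1%), 84.0% in KO_sham (82.4 to 85.4%), 82.6% in Het_MI (80.9 to 84.3%) and 77.2% in Het_sham (74.8 to 79.4%). In NK cells, given as the background from free RNA, it was found in 1.72% in KO_MI and in 0 of 52 cells in KO_sham, 0 of 67 in Het_MI and 0 of 24 in Het_sham. T cells stood higher, at 4.55% in KO_MI, 5.17% in KO_sham, 5.81% in Het_MI and 9.16% in Het_sham. The median depth was 8413 to 10475 UMIs per macrophage, 4434 to 4811 per NK cell and 4834 to 5803 per T cell. After thinning each cell to 2000 UMIs a Cd86 UMI remained in 31.7 to 40.3% of macrophages, 0 to 0.885% of NK cells and 0.877 to 3.53% of T cells.

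Cd80 was not highest in macrophages. Neutrophils had 68.6 CPM in KO_MI, 75.7 in KO_sham, 83.7 in Het_MI and 107 in Het_sham, and non-classical monocytes, the patrolling monocytes of the vessel wall, had 50.4, 78.1, 65.7 and 51.3 CPM. Classical monocytes had 40.8, 40.1, 51.3 and 27.2 CPM, and macrophages 12.3, 14.9, 14.6 and 14.6 CPM. Every library of classical monocytes lay above every library of macrophages, while neutrophils, non-classical monocytes, migratory DCs and cDC2 overlapped in range with the next type in the order. A neutrophil held few UMIs in all (medians of 1922 to 2337), and the neutrophil figure rests on 29 to 53 Cd80 UMIs per library.

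**Figure D1:**
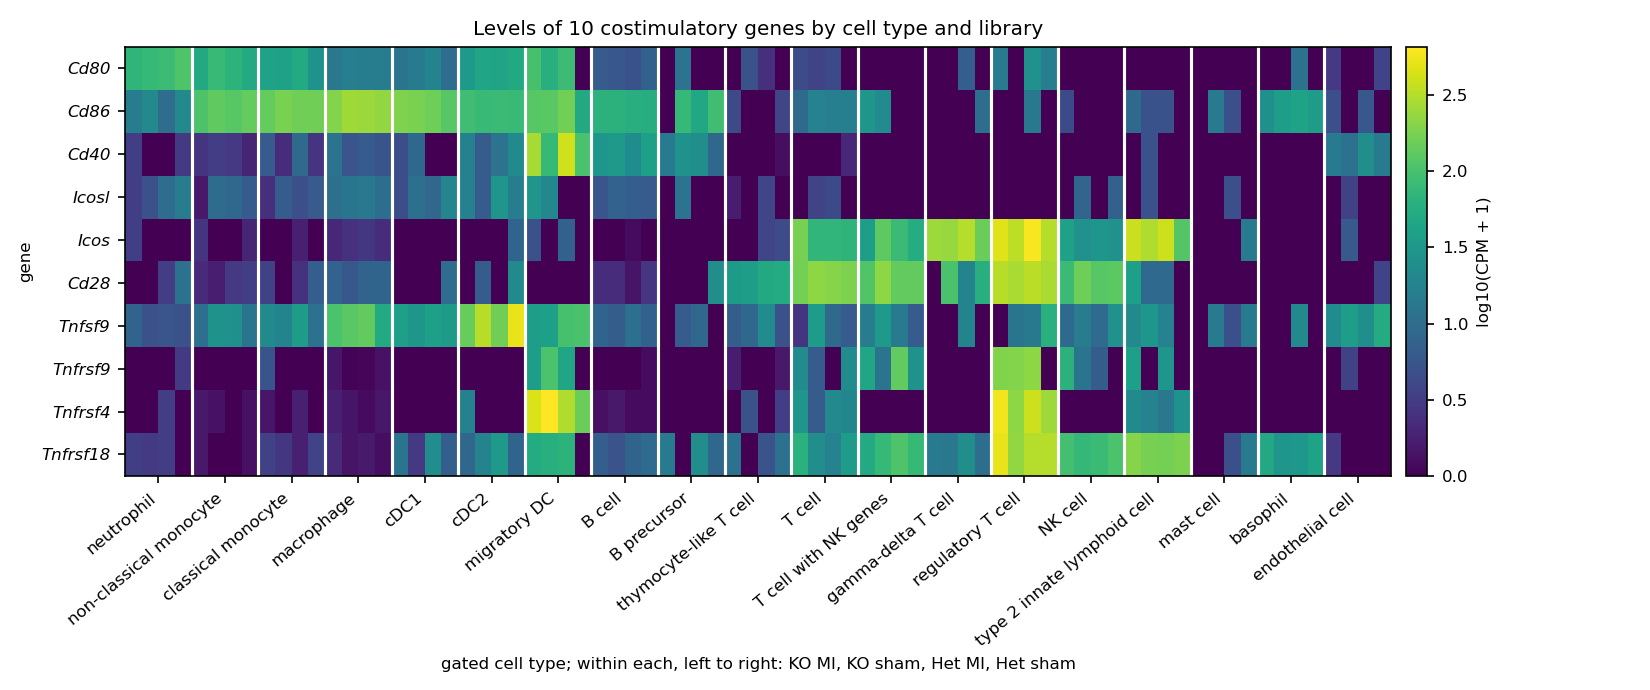
Heat map of the level of each of the 10 members (rows, log10 of CPM + 1 in colour) in 19 gated cell types (columns, each with KO_MI, KO_sham, Het_MI and Het_sham from left to right). Cd86 peaks in macrophages, Cd80 in neutrophils and non-classical monocytes, Cd40 and Tnfrsf4 in migratory DCs, and Icos, Cd28 and Tnfrsf18 in regulatory T cells.

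In the test of macrophages over classical monocytes, 7 of the 8 members tested were called, where 57.7% of all 8383 genes tested were. Cd86 was higher in macrophages by 0.40 ± 0.13 (log2, SE, adjusted p = 0.0066) and Cd80 lower by a log2 fold change of -1.63 ± 0.17 (adjusted p = 1.2e-12). Tnfsf9 was higher in macrophages by 2.18 ± 0.26 (adjusted p = 6.2e-11). The T cell genes Icos (2.80 ± 1.07) and Cd28 (1.13 ± 0.44), and Tnfrsf18 (-1.72 ± 0.53) and Tnfrsf9 (-2.11 ± 0.86), were called at few UMIs, and markers of T cells summed to 19.3 to 99.6 CPM in the macrophages. With second-lineage droplets kept, 3 members were called, Cd80, Tnfsf9 and Cd28. DESeq2 did not call Tnfrsf9 (-1.71). Without KO_sham, 4 were called, Cd80, Cd86, Tnfsf9 and Tnfrsf18. Cd28 was also lost without KO_MI (1.03) and without Het_MI (0.95), and Icos (2.53) and Tnfrsf18 (-1.36) without Het_sham.

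In non-classical over classical monocytes, 4 of 8 members were called, where 41.6% of all genes were. Cd80 was higher in non-classical monocytes (0.59 ± 0.17, adjusted p = 0.0036) and Cd86 lower (-0.38 ± 0.14, adjusted p = 0.020). Tnfrsf18 was lower (-2.86 ± 0.89), and Tnfrsf9 had 0 UMIs in non-classical monocytes against 9 in classical monocytes, all of them in KO_MI. Without KO_sham 0 of 7 members were called by edgeR and 3 had an unadjusted p under 0.05, with Cd80 at 0.48, Cd86 at -0.34 and Tnfrsf18 at -2.44. DESeq2, over all 4 libraries, called 3. Cd86 was not called without Het_MI (-0.39) or with second-lineage droplets kept (-0.33). Of the other B7 ligands, Cd274 (PD-L1) was higher in non-classical monocytes by 3.53 ± 0.24 and Pdcd1lg2 (PD-L2) by 2.92 ± 0.60, which with Pvr lower made 2 higher and 1 lower of 6 tested. Of the adaptors and kinases of CD28 and TNF receptor signalling, 9 of 17 tested were higher and none was lower, among them Traf1 (2.48 ± 0.24) and Map3k14 (NIK, the kinase of the alternative NF-kB pathway, 2.06 ± 0.16).

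Cd40, the receptor through which T cells license B cells, DCs and macrophages, was highest in migratory DCs. Its level there was 278 CPM in KO_MI, 75.5 in KO_sham, 411 in Het_MI and 100 in Het_sham, on 69, 8, 63 and 2 UMIs. B cells had 28.8, 31.4, 22.4 and 37.6 CPM, and macrophages 10.7, 4.50, 5.42 and 4.37 CPM. The ranges of migratory DCs and B cells did not overlap. Endothelial cells, few in a CD45+ sort, had 10.4 to 24.1 CPM, and T cells had 1 UMI in all 4 libraries. By number of molecules, macrophages held 43.3% and B cells 39.9% of all Cd40 UMIs.

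In B cells over macrophages, 7 of 8 members tested were called, where 74.9% of all genes were, so the count lies near the background. Cd40 was higher in B cells by 2.45 ± 0.20 (adjusted p = 1.7e-15) and Tnfrsf18 by 3.41 ± 0.29 (adjusted p = 1.1e-16). Cd86 was lower in B cells (-1.83 ± 0.13), as were Cd80 (-1.30 ± 0.20) and Tnfsf9 (-3.70 ± 0.26). Cd28 and Icos were also called lower in B cells, with 22 and 1 UMIs in B cells. Of the adaptors and kinases, 12 of 17 tested were higher in B cells and 2 were lower. The other ligands of the B7 family split: Cd274 (1.93 ± 0.19) and Pdcd1lg2 (2.44 ± 0.42) were higher in B cells, and Vsir, Cd276, Nectin2 and Pvr were lower.

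Icosl, which encodes the ligand of ICOS, was spread thinly. In macrophages, which held 80.6% of its UMIs, its level was 9.98 CPM in KO_MI, 11.5 in KO_sham, 12.3 in Het_MI and 9.51 in Het_sham. cDC2 had 16.1, 5.65, 28.5 and 14.3 CPM on 13 UMIs in all. B cells had 4.53 to 6.61 CPM, and every one of the first 8 types in the order overlapped in range with the next. Icosl passed the filter on low counts in neither fit and was not tested between types.

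Tnfsf9, which encodes 4-1BBL, was highest in cDC2, at 145 CPM in KO_MI, 328 in KO_sham, 161 in Het_MI and 530 in Het_sham. Macrophages held 92.1% of its UMIs, at 103, 124, 137 and 51.9 CPM, and did not overlap with cDC2. Types below them, from migratory DCs (36.3 to 100 CPM) down to non-classical monocytes (9.73 to 26.5 CPM), overlapped with their neighbours. The mean over libraries was 291 CPM in cDC2 and 104 in macrophages. In cells thinned to 2000 UMIs these means were 136 and 91.2 CPM.

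**Figure D2:**
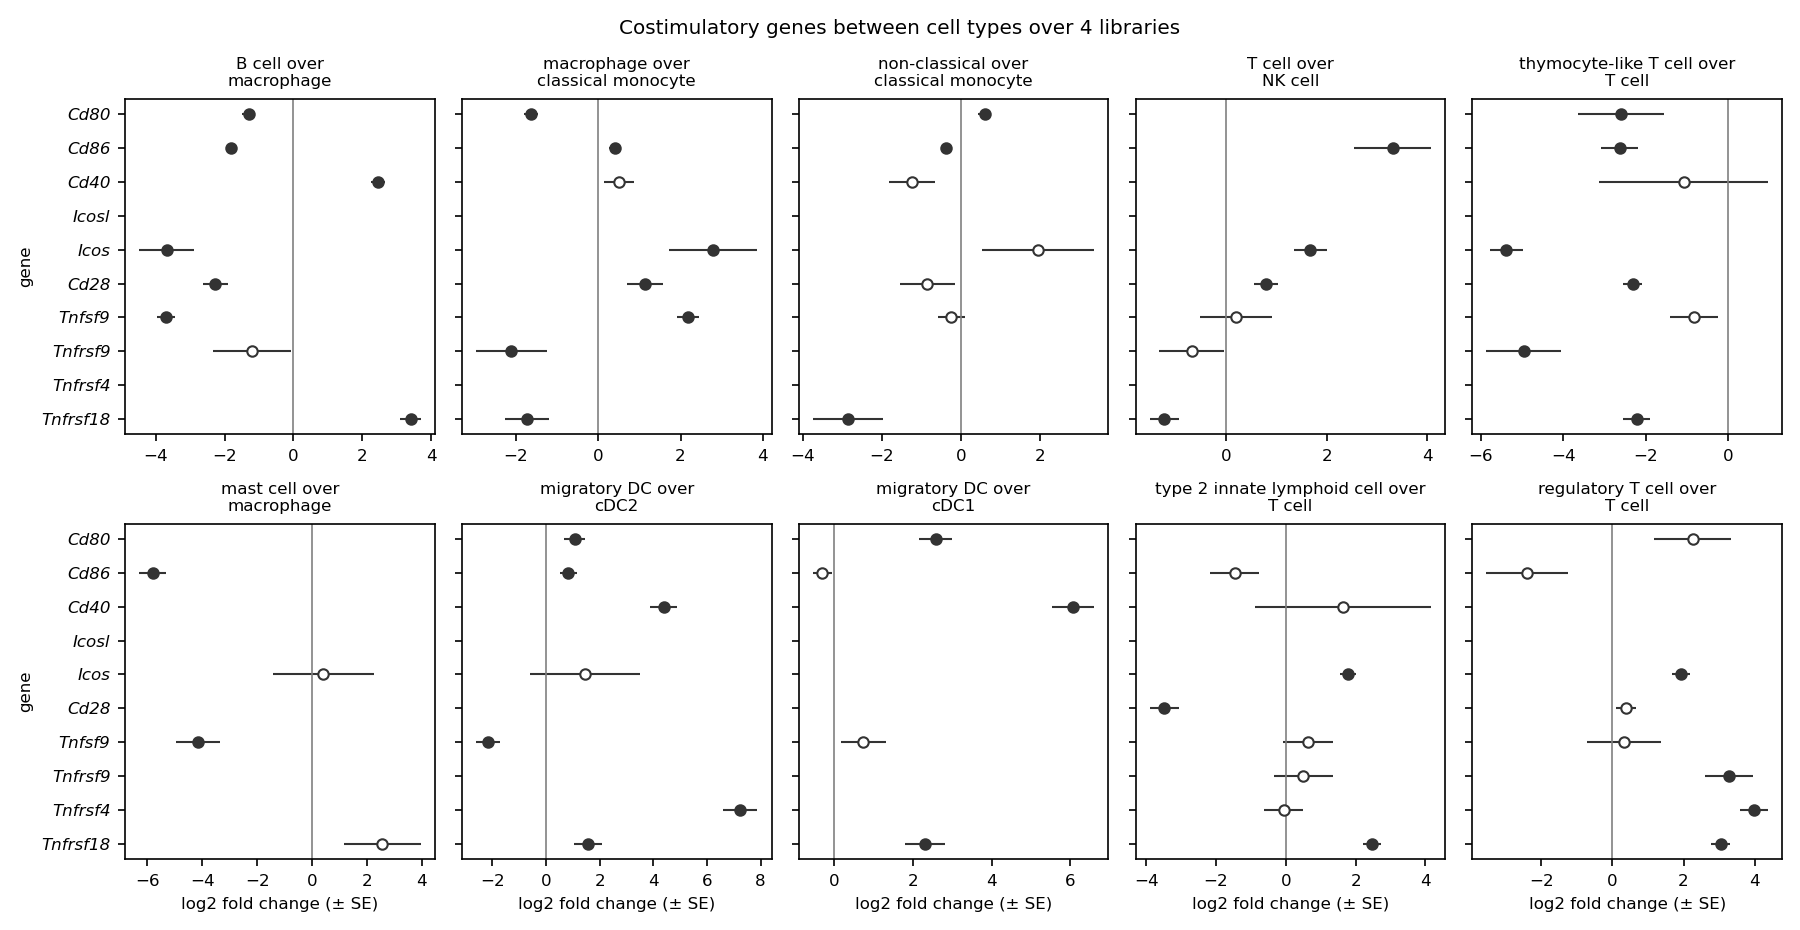
Log2 fold change of each member tested between pairs of cell types (edgeR, point with SE bars), with filled points where the adjusted p was under 0.05. Members with 0 UMIs in either type are not drawn. Cd40 and Tnfrsf4 stand to the right for migratory DCs, Icos and Tnfrsf18 for regulatory T cells and type 2 innate lymphoid cells, and Cd86 and Tnfsf9 to the left for mast cells.

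Mast cells carried almost none of the ligands. In mast cells over macrophages, 3 of 8 members were called, where 32.8% of all genes were. Cd86 was lower in mast cells by a log2 fold change of -5.81 ± 0.49 and Tnfsf9 by -4.17 ± 0.80, and Cd80 had 0 UMIs in mast cells. Of 6 other B7 ligands tested, 3 were higher in mast cells and 2 were lower. The higher ones were Cd274 (2.12 ± 0.56), Pdcd1lg2 (3.31 ± 1.26) and Cd276.

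Migratory DCs were tested in a fit over 19 types, with at least 3 cells in each library, that was chosen after the data were seen, because the planned minimum of 10 cells left them out. Relative to cDC2, 7 of 9 members tested were called, where 29.9% of all 7333 genes were. Cd40 was higher in migratory DCs by 4.38 ± 0.50 (adjusted p = 2.5e-10) and Tnfrsf4 by 7.24 ± 0.64 (adjusted p = 2.2e-13). Tnfrsf4 had 451 CPM in KO_MI, 651 in KO_sham, 300 in Het_MI and 150 in Het_sham migratory DCs, against 16.1 CPM in KO_MI cDC2 and 0 UMIs in the other cDC2. Tnfrsf9 had 27 UMIs in migratory DCs and 0 in cDC2, at least 12.3-fold higher against a floor of 3 UMIs over the 4 libraries. Tnfrsf18 (1.56 ± 0.52), Cd80 (1.07 ± 0.39) and Cd86 (0.84 ± 0.30) were also higher and Tnfsf9 was lower (-2.17 ± 0.44). Without KO_MI or without KO_sham none of Tnfrsf18, Cd80 and Cd86 was called, with log2 fold changes of 1.52, 0.64 and 0.88 without KO_MI and 1.44, 1.15 and 0.79 without KO_sham. Without Het_MI, Cd80 (1.05) and Cd86 (0.72) were not called either. Cd80 (0.80) and Tnfrsf18 (1.16) were not called with second-lineage droplets kept, nor Cd80 (1.02) and Cd86 (0.79) with no filter on low counts.

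Relative to cDC1, 5 of 9 members were called in migratory DCs, all higher, where 30.5% of all genes were called. Cd40 was higher by 6.07 ± 0.53, Cd80 by 2.58 ± 0.42 and Tnfrsf18 by 2.30 ± 0.51. Tnfrsf4 and Tnfrsf9 had 0 UMIs in cDC1, which put them at least 218-fold and at least 25.6-fold higher against 3 UMIs over the 4 libraries. Cd86 (-0.30 ± 0.24) and Tnfsf9 (0.74 ± 0.57) did not pass the test.

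The wider pathway showed the following in migratory DCs. Of 17 adaptors and kinases tested, 8 were higher than in cDC2 and 4 were lower, and 9 were higher than in cDC1 and 4 were lower. The higher ones over cDC2 included Relb (4.09 ± 0.26) and Nfkb2 (2.65 ± 0.25), subunits of the alternative NF-kB pathway, Map3k14 (1.85 ± 0.29), Traf1 (2.61 ± 0.27) and Traf3 (4.16 ± 0.56). The lower ones included Pik3cd, Grap2 and Vav1, which serve antigen receptor and CD28 signalling in lymphocytes. Of 6 other B7 ligands tested, 3 were higher than in cDC2, among them Cd274 (3.34 ± 0.61) and Pdcd1lg2 (3.38 ± 1.12), and Vsir (VISTA) was lower (-3.79 ± 0.75). Il4i1 and Nudt17, which are among the genes of like pattern, were markers used to gate these cells.

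Cd28, Icos and Tnfrsf18 were highest in lymphocytes, while Tnfrsf4 was shared by regulatory T cells and migratory DCs. Cd28 was highest in regulatory T cells, at 325 CPM in KO_MI, 286 in KO_sham, 330 in Het_MI and 284 in Het_sham. T cells had 168, 216, 200 and 180 CPM, and the ranges of these types did not overlap. T cells with NK genes (111 to 217 CPM) and NK cells (82.3 to 154 CPM) overlapped with their neighbours, and thymocyte-like T cells (Rag1- or Ptcra-expressing) had 32.9 to 53.5 CPM. Macrophages had 4.95 to 7.13 CPM.

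Icos, which is induced on T cells after activation and kept on regulatory T cells and type 2 innate lymphoid cells (ILC2), had 474 CPM in KO_MI, 343 in KO_sham, 609 in Het_MI and 314 in Het_sham regulatory T cells. ILC2 had 389, 302, 392 and 115 CPM and gamma-delta T cells 253, 238, 312 and 151 CPM. T cells had 170, 70.2, 70.1 and 65.9 CPM. From regulatory T cells down to NK cells (25.6 to 39.5 CPM) each type overlapped in range with the next. Below NK cells no type had more than 12 Icos UMIs in a library apart from macrophages, whose level was 1.13 to 1.86 CPM.

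Tnfrsf18 (GITR) had 528 CPM in KO_MI, 229 in KO_sham, 317 in Het_MI and 314 in Het_sham regulatory T cells. ILC2 had 201, 174, 169 and 179 CPM, and NK cells 92.2, 73.2, 80.9 and 102 CPM, and these 3 types did not overlap in range. Basophils had 29.2 to 49.5 CPM and T cells 16.7 to 62.1 CPM. Tnfrsf4 (OX40) had 568, 217, 393 and 254 CPM in regulatory T cells, overlapping with migratory DCs, and both lay above every other type, with ILC2 at 12.4 to 25.6 CPM. Tnfrsf9 (4-1BB) had 189 CPM in KO_MI, 195 in KO_sham and 216 in Het_MI regulatory T cells and 0 UMIs in the 6 of Het_sham. Tnfrsf9 was the member with the fewest UMIs, 230 in all cells used.

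In regulatory T cells over T cells, a test added with the same 19-type fit, 4 of 9 members were called, all higher, where 12.9% of all genes were. They were Icos (1.92 ± 0.26, adjusted p = 4.6e-08), Tnfrsf9 (3.27 ± 0.67, adjusted p = 0.00032), Tnfrsf4 (3.98 ± 0.39, adjusted p = 5.1e-11) and Tnfrsf18 (3.05 ± 0.27, adjusted p = 2.7e-14). DESeq2 did not call Tnfrsf9 (3.59). Cd28 was at 0.38 ± 0.28 and did not pass (adjusted p = 0.42). Of the related receptors, Ctla4, the inhibitory partner of CD28, was higher by 4.68 ± 0.35, Cd96 was lower (-2.94 ± 0.74), and Cd27 was higher (0.81 ± 0.26). Of the adaptors and kinases, 1 of 17 was higher, Traf1 (1.84 ± 0.42), and 3 were lower.

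In ILC2 over T cells, 3 of 9 members were called, where 22.7% of all genes were. Icos (1.79 ± 0.23, adjusted p = 3.1e-09) and Tnfrsf18 (2.48 ± 0.26, adjusted p = 8.5e-13) were higher in ILC2, and Cd28 was lower (-3.48 ± 0.42, adjusted p = 5.4e-10). Cd28 had 37.6 CPM in KO_MI, 8.26 in KO_sham, 8.25 in Het_MI and 0 in Het_sham ILC2, each below every library of T cells. Of the other TNF receptors, Tnfrsf25 (DR3, the receptor of TL1A) was higher (2.20 ± 0.43) and Cd27 lower (-1.59 ± 0.32). Of 7 early activation genes tested, 5 were higher in ILC2 and none was lower. They included Il2ra. Regulatory T cells, gated by a Foxp3 UMI, were kept apart from these T cells.

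In T cells over NK cells, 4 of 8 members were called, where 13.6% of all genes were. Icos (1.67 ± 0.34, adjusted p = 0.00018), Cd28 (0.78 ± 0.24, adjusted p = 0.017) and Cd86 (3.31 ± 0.77) were higher in T cells, and Tnfrsf18 was lower (-1.24 ± 0.29, adjusted p = 0.0011). Cd86 rested on 40 UMIs in T cells and 2 in NK cells. Markers of macrophages summed to 82.4 to 151 CPM over the libraries of the T cell gate and to 66.5 to 123 CPM over those of the NK cell gate, and their part in the Cd86 difference was not tested. Cd28 was not called without KO_MI (0.69), without Het_MI (0.76), by DESeq2 (0.79) or with second-lineage droplets kept (0.35).

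Thymocyte-like T cells had less of most members than T cells. In that test 6 of 8 were called, all lower, where 46.1% of all genes were called. Icos was lower by a log2 fold change of -5.39 ± 0.40 (adjusted p = 4.8e-17), Cd28 by -2.31 ± 0.23 (adjusted p = 8.8e-13), Tnfrsf18 by -2.22 ± 0.33 and Tnfrsf9 by -4.96 ± 0.91. DESeq2 did not call Tnfrsf9 (-4.46). Of the adaptors and kinases 13 of 17 were lower and none was higher, and of the CD28 family and inhibitory partners 5 of 5 tested were lower, among them Pdcd1 and Ctla4. The calls of Cd80 and Cd86 in this test rested on 2 and 15 UMIs in thymocyte-like T cells, and with second-lineage droplets kept Cd86 was at -0.38 and not called. Cd80 was lost whenever any library was left out, with log2 fold changes from -3.20 (without KO_sham) and -2.97 (without Het_MI) to -2.04 (without KO_MI) and -1.95 (without Het_sham).

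The genes of most like pattern were found by Pearson correlation of log2(CPM + 10) over 56 points, each a cell type in a library, among 11823 genes. The points share their libraries, and no p is given. For Icos they were Cxcr6 (0.94), Pdcd1 (0.91) and Gata3 (0.90), and for Cd28 they were Sh2d1a (0.91), Lck (0.90) and Ms4a4b (0.89). Gata3 was among the markers used to gate ILC2, which are among the points. For Tnfrsf18 they were Pglyrp2 (0.82), Gstp3 (0.82) and Cd226 (0.81), and for Tnfrsf4 Slc4a8 (0.85), Tm4sf5 (0.83) and Nudt17 (0.82). For Tnfrsf9 they were AW112010 (0.69), Cysltr2 (0.66) and Ccl5 (0.65). Among the ligands, Cd86 was most like Irf5 (0.91), Ly86 (0.89) and Rassf4 (0.89), and Cd80 most like Gpr35 (0.92), Mcemp1 (0.92) and Ptafr (0.91). Cd40 was most like Snn (0.82), Il4i1 (0.78) and H2-Eb2 (0.78), Icosl like Bmp2k (0.71), Cd83 (0.69) and Syngr2 (0.69), and Tnfsf9 like Palld (0.78), Cttnbp2nl (0.78) and Sh3pxd2b (0.77). Cd80 and Cd86 were therefore not among each other's closest genes, nor were Icosl and Icos or Tnfsf9 and Tnfrsf9.

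The conditions were compared in 6 of the 12 cell types with at least 20 cells in each library, a choice made after the data were seen, and the other types are given by their values at the end. Values that move with the groups stand beside them. Macrophages of KO_MI were shallower (median 8413 UMIs per cell, against 10310 to 10475 in the other libraries). KO_MI also lacked Y-linked RNA in the types checked (macrophages, T cells, NK cells and non-classical monocytes), with 0 UMIs of 4 Y-linked genes in its macrophages, against 2782 in KO_sham, 3160 in Het_MI and 1321 in Het_sham, so the sex of the mice differs between the libraries and cannot be told apart from the group. In T cells Pdcd1 was higher in the knockout library of the infarcted pair and lower in that of the sham pair: T cells had 40 UMIs in KO_MI, 3 in KO_sham, 2 in Het_MI and 10 in Het_sham, and NK cells 37, 2, 2 and 2 UMIs. Since 3' counts need not lie in the deleted part, this does not check the genotype.

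T cells of KO_MI had more Icos and Tnfrsf18 than those of the other libraries. In KO_MI over Het_MI, 2 of 4 members measured were past 1.5-fold, both higher, where 29.1% of all genes were past it. Icos had 101 UMIs (170 CPM) in KO_MI and 42 (70.1 CPM) in Het_MI, a log2 ratio of 1.27 (0.74 to 1.83). Tnfrsf18 had 37 UMIs (62.1 CPM) in KO_MI and 10 (16.7 CPM) in Het_MI, a log2 ratio of 1.90 (0.86 to 3.07). Cd28 was at -0.25 (-0.65 to 0.14) and Tnfrsf4 at 0.51 (-0.64 to 1.71). With second-lineage droplets kept, which gave 270 cells in KO_MI and 176 in Het_MI, Icos was at 0.69 and Tnfrsf18 at 0.81. Restricted to cells that had Xist but lacked Y-linked UMIs, 96 in KO_MI and 15 in Het_MI, Icos was at 2.51 and Tnfrsf18 at 2.08.

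In KO_MI over KO_sham T cells, 3 of 5 members were higher and 1 was lower past 1.5-fold, where 32.7% of all genes were past it. Icos was at 1.27 (0.77 to 1.79), Tnfrsf18 at 1.38 (0.52 to 2.30) and Tnfrsf4 at 2.35 (0.73 to 4.38, on 17 and 4 UMIs). With second-lineage droplets kept, Icos was at 0.34, under 1.5-fold. Tnfsf9 was lower, with 1 UMI in KO_MI and 24 in KO_sham, and with these droplets kept it was at -0.39. Markers of cDC2 summed to 10.1 CPM in KO_MI T cells and to 74.4 CPM in KO_sham T cells, and their part in the Tnfsf9 difference was not tested.

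The share of T cells with an Icos UMI did not follow the CPM: it was 33 of 110 cells in KO_MI (21.6 to 39.5%), 24.1% in KO_sham (16.7 to 33.0%), 31.4% in Het_MI (21.8 to 42.3%) and 20.6% in Het_sham (14.0 to 28.6%). In B cells, as background, it was 0, 0, 0.138 and 0%. No order of the libraries is read from it. Thinned to 2000 UMIs it was 24.8%, 14.0%, 14.1% and 10.5%, with overlapping intervals.

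A split of the T cells chosen after the data were seen showed where the Icos molecules were. Among T cells with a Cd4 UMI and none of Cd8, 22, 27, 20 and 33 cells in KO_MI, KO_sham, Het_MI and Het_sham, Icos had 403, 65.2, 44.7 and 69.7 CPM. Tnfrsf18 had 142, 5.43, 19.1 and 14.9 CPM in the same cells, and Tnfrsf4 97.0, 16.3, 57.4 and 14.9 CPM. Among T cells with Cd8 and no Cd4 UMI, 51, 36, 29 and 54 cells, Icos had 58.9, 33.5, 56.1 and 26.8 CPM and Tnfrsf18 31.2, 8.36, 9.35 and 17.1 CPM. The Cd4 cells of KO_MI thus stood above those of the other libraries for Icos, Tnfrsf18 and Tnfrsf4, on 54, 19 and 13 UMIs.

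Other genes moved beside these in the T cells. In KO_MI over Het_MI, Ctla4 was at 2.30 (44 and 9 UMIs), Cd40lg, the ligand of CD40, at 2.59 (18 and 3 UMIs) and Pdcd1 at 4.33 (40 and 2 UMIs). Cd40lg had 30.2 CPM in KO_MI, 14.0 in KO_sham, 5.01 in Het_MI and 8.79 in Het_sham T cells. Of the adaptors and kinases, 1 of 15 measured was higher past 1.5-fold and 5 were lower, with Prkcq, the kinase downstream of CD28, at -0.77. Effector genes (6 genes, among them Gzmb and Ifng) summed to 6976 CPM in KO_MI, 3246 in KO_sham, 2153 in Het_MI and 1865 in Het_sham T cells. Such a sum can rest on 1 gene: in Het_MI migratory DCs the list summed to 15686 CPM with UMIs of 1 gene only. The T cell sums were not split by gene here. NK cell markers summed to 2270 CPM in KO_MI, 1048 in KO_sham, 588 in Het_MI and 578 in Het_sham T cells. The effector genes were chosen after the data were seen, and the part of either list in the differences was not tested.

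**Figure D3:**
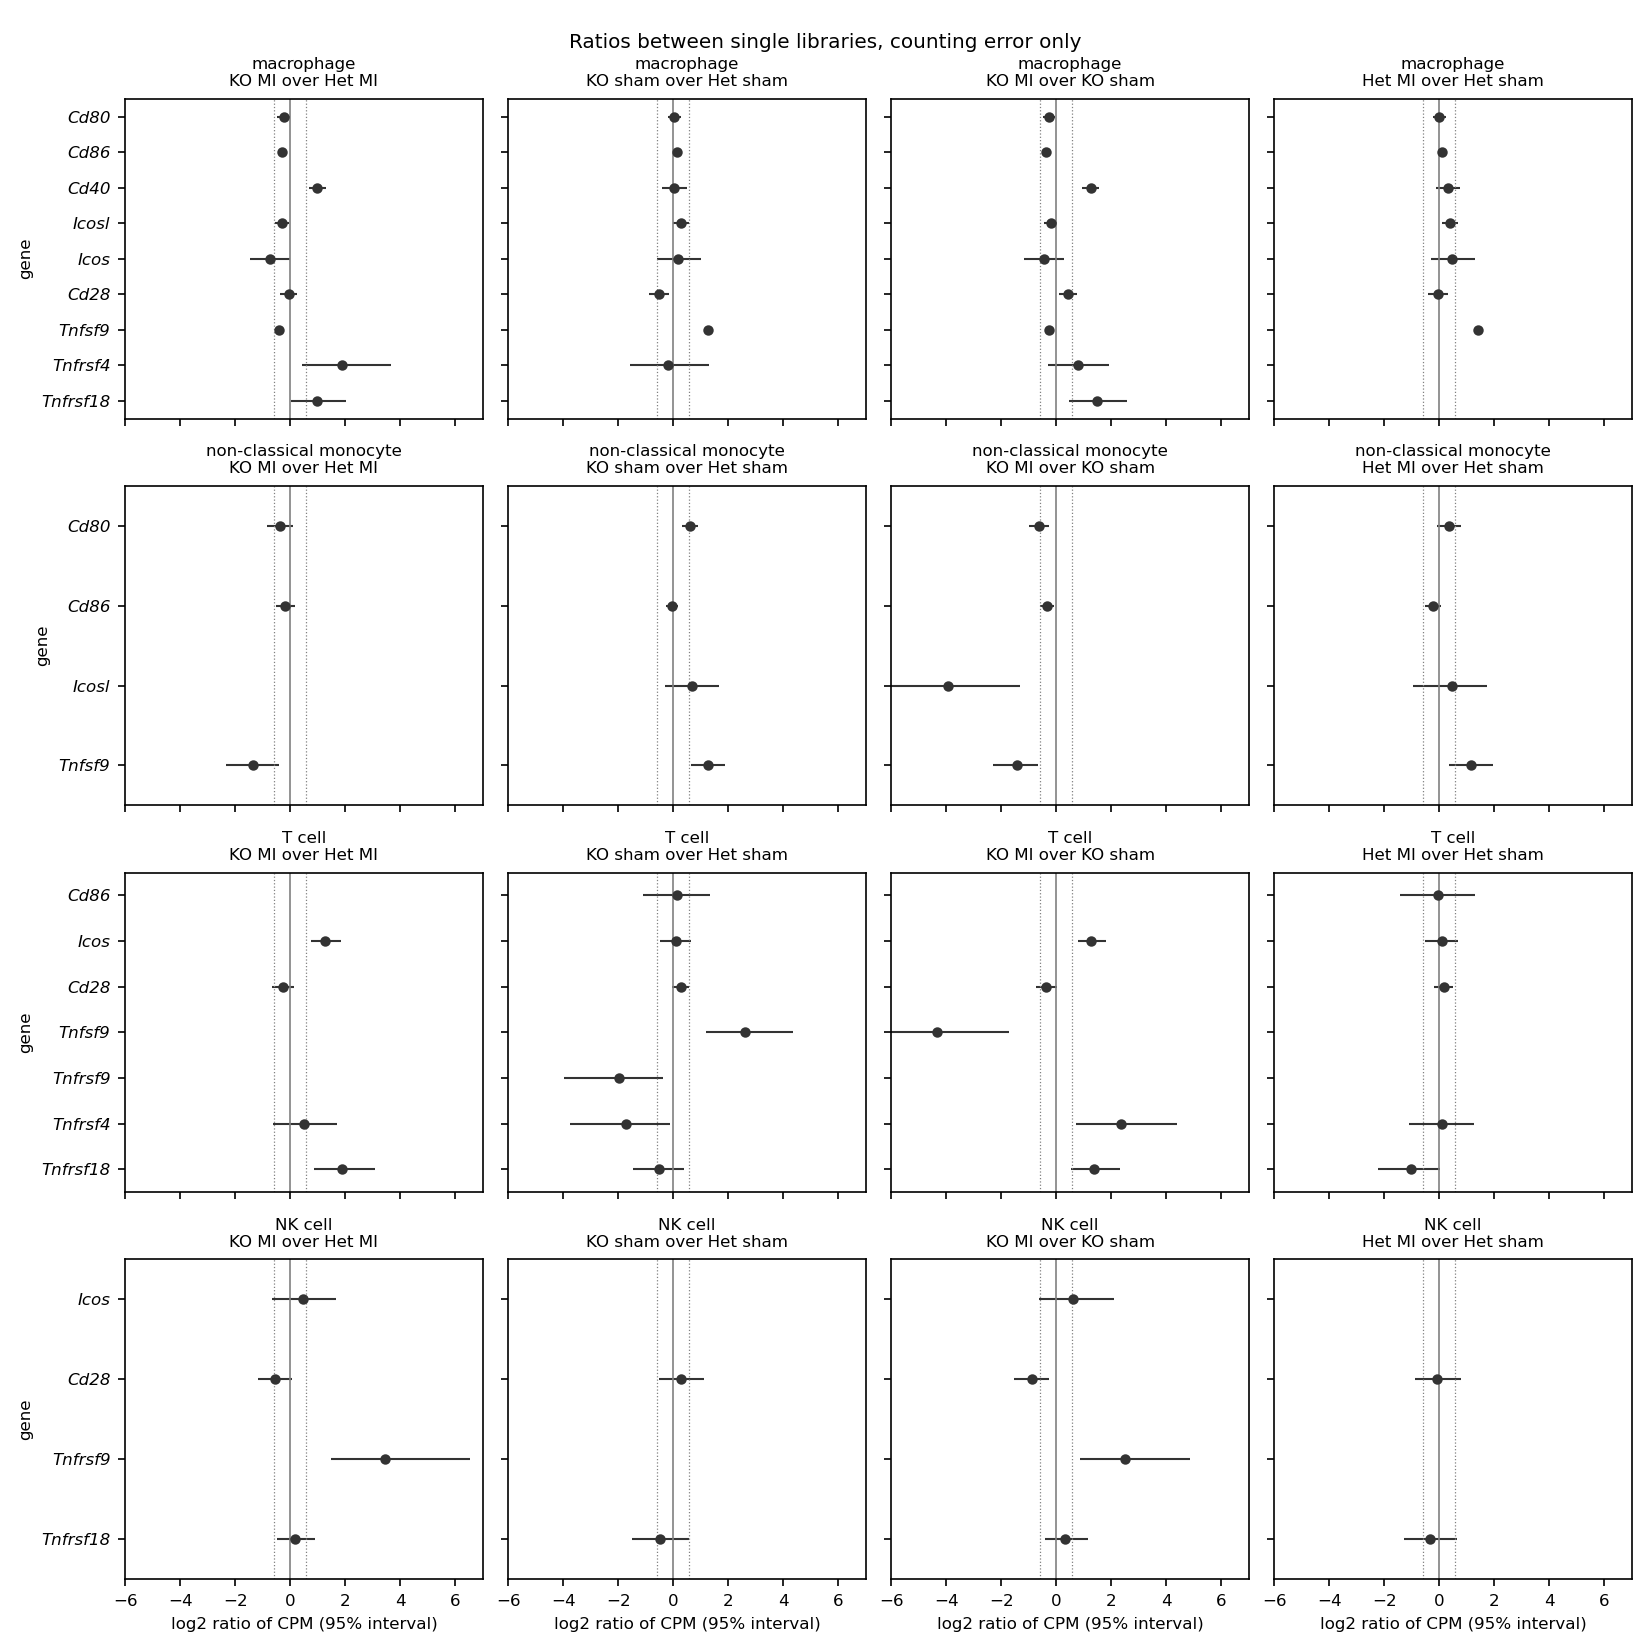
Log2 ratio of each measured member between libraries, by cell type and contrast, with exact 95% intervals for counting error. Panels show 4 of the 6 cell types compared. A member with 0 UMIs in either library is not drawn, which leaves out Tnfrsf9 in T cells of Het_MI over Het_sham. Dotted lines mark 1.5-fold, and intervals that reach past the axis are cut at its edge. Icos and Tnfrsf18 in T cells and Cd40 in macrophages lie to the right in both contrasts that have KO_MI on top, and Tnfsf9 in macrophages lies to the right in both contrasts over Het_sham.

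In the sham hearts, KO_sham over Het_sham, 1 of 7 members measured in T cells was higher and 2 were lower past 1.5-fold, where 26.8% of all genes were past it. Tnfsf9 was higher (24 and 5 UMIs), with cDC2 markers at 74.4 CPM in KO_sham T cells and 1.1 in Het_sham T cells. Tnfrsf9 (4 and 20 UMIs) and Tnfrsf4 (4 and 17 UMIs) were lower. In Het_MI over Het_sham, 2 of 6 were lower, where 25.8% of all genes were past the fold. Tnfrsf9 had 0 UMIs in Het_MI, which allows up to 5.01 CPM, and 20 UMIs (22.0 CPM) in Het_sham, and Tnfrsf18 was at -1.03 (-2.22 to 0.04), or -0.55 without the cell with the most UMIs. Icos was at 0.09 in both of these contrasts, with intervals of -0.48 to 0.66 and -0.52 to 0.68.

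NK cells of KO_MI stood out for Tnfrsf9. It had 38 UMIs (62.5 CPM) in KO_MI, 3 in KO_sham, 2 (5.78 CPM) in Het_MI and 0 in Het_sham, and 19.8% of NK cells had a UMI in KO_MI (13.0 to 28.3%), 5.77% in KO_sham, 2.99% in Het_MI and 0 of 24 in Het_sham. In B cells, as background, a Tnfrsf9 UMI was found in 1 of 901 cells in Het_sham and in none in the other libraries, at median depths of 3218 to 4232 UMIs per B cell. The log2 ratio was 3.44 (1.48 to 6.53) over Het_MI and 2.51 (0.85 to 4.85) over KO_sham. It was the 1 member of 4 measured past 1.5-fold over Het_MI, where 30.9% of all genes were past it. Over KO_sham, 2 of 4 were higher, Tnfrsf9 and Icos (0.62, -0.63 to 2.08, and 0.51 without the cell with the most UMIs), and Cd28 was lower (-0.90, -1.52 to -0.27), where 32.6% of all genes were past the fold. Tnfrsf18 and Cd28, the 2 members measured in NK cells of the contrasts over Het_sham, were not past the fold in KO_sham over Het_sham, where 32.4% of all genes were, nor in Het_MI over Het_sham, where 34.1% were.

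Macrophages of KO_MI had more Cd40. Its level was 10.7 CPM on 275 UMIs in KO_MI, 4.50 on 129 in KO_sham, 5.42 on 128 in Het_MI and 4.37 on 68 in Het_sham. The log2 ratio was 0.98 (0.68 to 1.30) over Het_MI and 1.25 (0.95 to 1.57) over KO_sham. Over Het_MI it was 0.66 with cells thinned to 2000 UMIs and 1.44 among cells that had Xist but lacked Y-linked UMIs. In KO_MI over Het_MI, 3 of 9 members were higher and 1 was lower past 1.5-fold in macrophages, where 9.98% of all genes were past it. The others were receptors of lymphocytes at few UMIs, Tnfrsf4 (20 and 5 UMIs), Tnfrsf18 (30 and 14) and Icos (29 and 44), and without the cell with the most UMIs Icos was at -0.35. In KO_MI over KO_sham, 3 of 9 were higher, Cd40, Tnfrsf4 and Tnfrsf18, where 12.8% of all genes were past the fold. Without the cell with the most UMIs Tnfrsf4 was at 0.05.

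Part of the Cd40 molecules of KO_MI lay in a small set of macrophages. In macrophages with a UMI of Cxcl9, a chemokine gene induced by interferon-gamma, Cd40 had 66.5 CPM in KO_MI, 32.2 in KO_sham, 4.07 in Het_MI and 79.3 in Het_sham, on 88, 5, 1 and 6 UMIs in 95, 11, 8 and 4 cells. In macrophages without one it had 7.69, 4.35, 5.44 and 4.00 CPM. Most Cd40 UMIs of every library were therefore in cells without a Cxcl9 UMI, and KO_MI was highest among these cells too. Cells with a Cxcl9 UMI were deeper (medians of 11559 to 18531 UMIs), and the split was chosen after the data were seen. In the macrophage sums, genes of the interferon-gamma response (8 genes, Cxcl9 among them) summed to 2839 CPM in KO_MI, 658 in KO_sham, 1001 in Het_MI and 348 in Het_sham macrophages. The same list summed to 9474 CPM in Het_MI and 10641 CPM in Het_sham B cells, so its sum is not specific to that response. The part of these genes in the Cd40 level was not tested. Splits by Lyve1 or Spp1 left KO_MI highest on each side: with Lyve1 the levels were 12.4, 4.62, 5.90 and 4.45 CPM and without it 10.2, 4.41, 5.16 and 4.32 CPM.

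Tnfsf9 in macrophages was lowest in Het_sham. It had 103 CPM in KO_MI, 124 in KO_sham, 137 in Het_MI and 51.9 in Het_sham. The log2 ratio was 1.40 (1.29 to 1.51) in Het_MI over Het_sham and 1.26 (1.15 to 1.37) in KO_sham over Het_sham. It was the only member past 1.5-fold in macrophages in either contrast, of 7 measured, where 14.6% of all genes were past it, and of 8 measured, where 10.4% were. These contrasts share the Het_sham library. In KO_MI over Het_MI, Tnfsf9 was at -0.41 (-0.48 to -0.33), and at 0.14 among cells that had Xist but lacked Y-linked UMIs.

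Nearly all Tnfsf9 molecules were in macrophages with a UMI of Cxcl2, an inflammatory chemokine gene, and most macrophages had one. Those without one numbered 326 of 2601 in KO_MI, 257 of 2372 in KO_sham, 202 of 1948 in Het_MI and 467 of 1370 in Het_sham. Tnfsf9 had 111, 131, 144 and 67.2 CPM in the cells with a Cxcl2 UMI, in that order. In the cells without one it had 16.2, 21.5, 23.5 and 10.5 CPM. Het_sham was lowest on both sides of this split, which was chosen after the data were seen. In the macrophage sums, immediate early and inflammatory genes (10 genes, Cxcl2 and Fos among them) summed to 16128 CPM in KO_MI, 18242 in KO_sham, 18721 in Het_MI and 8827 in Het_sham macrophages. Tissue digestion can induce such genes, and their part in the Tnfsf9 difference was not tested. In Het_MI over Het_sham macrophages, 6 of 18 adaptors and kinases were higher past 1.5-fold and none was lower, and Tnfaip3, an NF-kB feedback inhibitor, was at 1.38.

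Cd86 varied little in macrophages. Its log2 ratio was -0.31 (-0.37 to -0.26) in KO_MI over Het_MI and -0.38 (-0.43 to -0.32) in KO_MI over KO_sham, while the median of all genes was -0.11 and -0.12. Cd86 was at 0.15 in KO_sham over Het_sham and at 0.09 in Het_MI over Het_sham, while the median of all genes was -0.07 and -0.08. Cd80 was at -0.24 and -0.27 in the contrasts with KO_MI on top, and at 0.03 and 0.00 over Het_sham. Icosl lay between -0.30 and 0.38 in the 4 contrasts. None of these was past 1.5-fold.

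**Figure D4:**
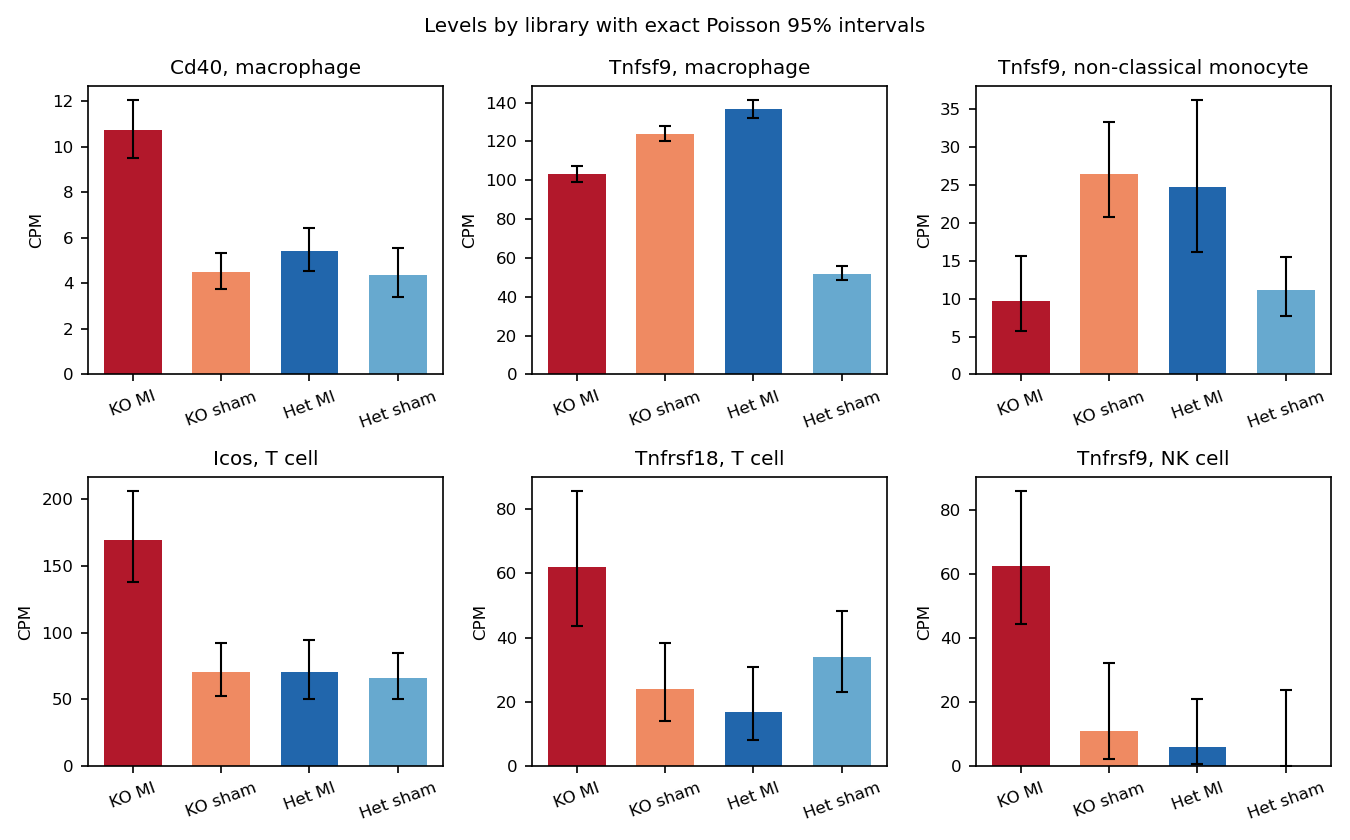
Level (CPM, bars from 0) of 5 members in the cell types named, 1 bar per library, with exact 95% Poisson intervals that cover counting error only. Icos in T cells, Cd40 in macrophages and Tnfrsf9 in NK cells are highest in KO_MI, and Tnfsf9 is lowest in Het_sham among macrophages and low in KO_MI and Het_sham among non-classical monocytes.

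In non-classical monocytes Tnfsf9 was low in KO_MI and in Het_sham. Tnfsf9 had 9.73 CPM in KO_MI, 26.5 in KO_sham, 24.8 in Het_MI and 11.1 in Het_sham. Its log2 ratio was -1.35 (-2.32 to -0.41) in KO_MI over Het_MI, -1.45 (-2.30 to -0.67) in KO_MI over KO_sham, 1.26 (0.65 to 1.89) in KO_sham over Het_sham and 1.16 (0.36 to 1.94) in Het_MI over Het_sham. Cd80 was lower in KO_MI over KO_sham (-0.63, -1.01 to -0.27) and higher in KO_sham over Het_sham (0.61, 0.30 to 0.91). In KO_sham over Het_sham Cd80 (0.58) and Icosl (0.55) were under 1.5-fold without the cell with the most UMIs. Icosl had 1 UMI in KO_MI and 24 in KO_sham non-classical monocytes. Past 1.5-fold were 1 of 3 measured members in KO_MI over Het_MI, lower, where 17.9% of all genes were past it, 3 of 4 in KO_MI over KO_sham, lower (18.0%), 3 of 4 in KO_sham over Het_sham, higher (11.3%), and 1 of 4 in Het_MI over Het_sham, higher (18.6%).

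Classical monocytes had 42 Tnfsf9 UMIs (20.7 CPM) in KO_MI, 28 (17.5 CPM) in KO_sham, 46 (35.2 CPM) in Het_MI and 19 (10.4 CPM) in Het_sham. In Het_MI over Het_sham, 2 of 3 members were higher past 1.5-fold, Tnfsf9 (1.77, 0.97 to 2.62) and Cd80 (0.91, 0.36 to 1.47), where 17.2% of all genes were past it. In KO_sham over Het_sham Tnfsf9 was higher (0.76, -0.13 to 1.68), 1 of 3 measured, where 14.2% of all genes were past it. In KO_MI over Het_MI, 2 of 4 were lower, Tnfsf9 (-0.77) and Cd40 (-0.64), where 17.2% of all genes were past the fold. The Cd40 ratio rests on 11 UMIs in each library and was 1.81 without the cell with the most UMIs. Without that cell Tnfsf9 was under 1.5-fold in KO_MI over Het_MI (-0.34) and in KO_sham over Het_sham (0.35), and at 1.34 in Het_MI over Het_sham. In KO_MI over KO_sham none of 3 members was past the fold, where 15.0% of all genes were.

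In B cells few members passed the fold. In Het_MI over Het_sham, 2 of 6 members were lower past 1.5-fold, Cd40 (-0.75, -1.11 to -0.39) and Cd80 (-0.67, -1.57 to 0.19, and -0.54 without the cell with the most UMIs), where 11.4% of all genes were past it. Cd40 had 22.4 CPM in Het_MI and 37.6 CPM in Het_sham B cells. In KO_sham over Het_sham, 1 of 6 was lower, Tnfrsf18 (-1.05, -1.85 to -0.29), where 9.1% of all genes were past the fold. None of 6 was past it in KO_MI over Het_MI, where 13.0% of all genes were, or in KO_MI over KO_sham, where 13.6% were. Cd86 lay between 0.02 and 0.17 in all 4 contrasts.

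The other types held few UMIs of the members. In thymocyte-like T cells Tnfsf9 had 9 UMIs in KO_MI, 2 in KO_sham, 15 in Het_MI and 14 in Het_sham. The log2 ratio was -1.89 in KO_MI over Het_MI and 2.44 in Het_MI over Het_sham, but 12 of the 15 UMIs of Het_MI were in 1 cell, and without it the ratios were 0.40 and 0.15. Cd28 in these cells was at -0.61 (-1.26 to 0.05) in KO_MI over Het_MI and at -0.59 (-1.74 to 0.37) in KO_sham over Het_sham. Tnfrsf18 had 16 UMIs in KO_MI, 0 in KO_sham, 3 in Het_MI and 36 in Het_sham, from 149, 27, 62 and 269 thymocyte-like T cells. In endothelial cells Tnfsf9 was at -0.75 (-2.04 to 0.49) in KO_MI over KO_sham and at -1.13 (-2.90 to 0.32) in Het_MI over Het_sham. No measured member was past 1.5-fold in neutrophils, cDC1 or B precursors, where Cd80 in neutrophils lay between -0.50 and -0.14 and Cd86 in cDC1 between 0.08 and 0.54. In ILC2, with fewer than 20 cells in Het_sham, Icos and Tnfrsf18 were at -0.01 and 0.25 in KO_MI over Het_MI and at 0.37 and 0.21 in KO_MI over KO_sham. No member had enough UMIs in basophils.

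Of 8 ligands of the TNF family outside the list, 1 passed the filter on low counts in each fit. In the added fit that ligand was called higher in ILC2 than in T cells (4.58) and lower in migratory DCs than in cDC2. In the planned fit it was called lower in macrophages than in classical monocytes (-1.89). It was also lower in B cells than in macrophages (-2.69) and in non-classical than in classical monocytes (-2.62). Cd70, the ligand of CD27, had 36.3 CPM in KO_MI, 37.7 in KO_sham, 45.6 in Het_MI and 0 in Het_sham migratory DCs, and Tnfsf4, the ligand of OX40, had 3, 1, 0 and 0 UMIs in the same cells. Tnfsf18, the ligand of GITR, had 21 UMIs in KO_MI, 43 in KO_sham, 39 in Het_MI and 28 in Het_sham macrophages. Ctla4, which competes with CD28 for CD80 and CD86, was plentiful in regulatory T cells, at 636 CPM in KO_MI, 1019 in KO_sham, 1091 in Het_MI and 747 in Het_sham.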

How the data were processed

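Live CD45+ heart cells were profiled with the 10x 3' v3 chemistry in 4 libraries, 1 per group, per the labels' protocols. The values the authors deposited are unnormalized UMI counts per gene and barcode, and the file headers name Cell Ranger 4.0.0. The submitters' processing notes name Cell Ranger 6.1.1, Seurat 4 and the builds mm10 and GRCm38. Cells with at least 500 UMIs, at least 200 genes and at most 10% mitochondrial UMIs were kept. Fixed markers assigned each cell to a type, droplets with a second lineage were removed, and no doublet caller was run. UMIs were summed per type and library with Python 3.11.15. Cell types were compared with edgeR 4.0.16 (R 4.3.3; TMM, library block, filterByExpr), and DESeq2 1.42.0 was an alternative. The procedure was tested on simulated data for T cells over NK cells, with changes set in the more highly expressed genes only. It recovered 21% of 2-fold and 95% of 4-fold changes, and called 0.083% of unchanged genes. A member that did not pass is therefore not shown to be unchanged. Libraries replicate a cell type and never a condition. The planned fit held 16 cell types and the added fit 19, each in all 4 libraries and with the library as a block. The p-values therefore measure the spread that remains after the block, over all types of a fit and not only the types compared. Intervals are exact (Poisson, Clopper-Pearson or conditional binomial) and cover counting error only. The 10 members are always named, with the leading genes of each list by UMIs or ratio and the 3 genes of most like pattern for each member. The members and lists were chosen with earlier results of these data known. Promoter windows were in the table for Cd80, Icosl, Tnfrsf9, Tnfrsf4 and Tnfrsf18. The sum of 1 list of T cell genes is not reported here.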

Additional observations from a re-analysis of the deposited data

Results flagged for a closer look

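Of 48 pairs of member and cell type checked for a library far from the other 3, 3 were picked out, all for KO_MI. Chance picks out about 1 group in 20, and the 4 libraries are 4 conditions. In macrophages Cd80 was low in KO_MI, at 12.3 CPM, against 14.6 to 14.9 CPM in the others. Cd40 in macrophages was high in KO_MI, at 10.7 CPM, against 4.37 to 5.42 CPM. Icos in T cells was high in KO_MI, at 170 CPM, against 65.9 to 70.2 CPM.

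Of 26 pairs checked for opposite effects of infarction in KO and in Het hearts, 3 were picked out because the ratio of MI over sham, with its counting interval, was below 0 in KO and above 0 in Het. With 1 library per group the difference was not tested. For Cd86 in macrophages the KO ratio minus the Het ratio was -0.46 on the log2 scale (-0.38 in KO and 0.09 in Het). For Tnfsf9 in macrophages it was -1.66 (-0.27 in KO and 1.40 in Het). For Tnfsf9 in non-classical monocytes it was -2.60 (-1.45 in KO and 1.16 in Het).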

How the results depend on the processing

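Across the alternatives other than leaving out a library, 324 member folds between cell types kept their side of the threshold, 17 lost their call and 4 gained one. With a library left out 239 kept their side and 25 lost their call. Of the member ratios between libraries in the 6 cell types compared, 606 stayed within their counting interval and 46 moved outside it. A change of sign was counted apart only for ratios past 1.5-fold, and 3 were found. Cd40 in classical monocytes of KO_MI over Het_MI was at 0.0889 with second-lineage droplets kept and at 1.81 without the top cell. Cd80 in B cells of Het_MI over Het_sham was at 0.25 with these droplets kept. Smaller ratios that changed sign stand among the 606 and the 46. The cause was not tested. Of the 606, 85 come from the setting of at least 50 UMIs, which only drops pairs and cannot move a ratio. In cells thinned to 2000 UMIs, 18 ratios moved by more than their interval and 56 did not. Among cells that had Xist but lacked Y-linked UMIs, 9 moved by more and 15 did not. With no filter on low counts, 10138 genes were called in B cells over macrophages, since more genes were tested. With second-lineage droplets kept, 1933 genes were called in T over NK cells, 2627 genes and 5 members in ILC2 over T cells, and 3 members in macrophages over classical monocytes. Without each library in turn, members called ranged from 4 to 6 in that test, from 0 to 3 in non-classical over classical monocytes and from 4 to 7 in migratory DCs over cDC2. Genes called ranged from 1781 (without Het_MI) to 2517 in mast cells over macrophages (2752 with all 4) and from 555 (without KO_sham) to 773 in regulatory T cells over T cells (945 with all 4). Pairs of member and cell type past 1.5-fold numbered 10 in KO_MI over Het_MI (4 in thinned cells, 4 at 50 or more UMIs), 9 in KO_sham over Het_sham (15 with the droplets kept, 4 at 50 or more UMIs), 13 in KO_MI over KO_sham (6 in thinned cells, 6 at 50 or more UMIs) and 8 in Het_MI over Het_sham (15 with the droplets kept). With the droplets kept, the highest type became non-classical monocytes for Cd80 and ILC2 for Icos, and in thinned cells regulatory T cells for Tnfrsf4.

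Libraries pair the cell types, so the library block was part of the test. Without the replicate block 6038 genes were called in B cells over macrophages and 1014 in T over NK cells, and 1 member call was lost in macrophages over classical monocytes (Tnfrsf9) and 1 in non-classical over classical monocytes. TMM scaling added 0.10 and 0.12 (log2) to the macrophage ratios of KO_MI over Het_MI and over KO_sham, and 0.12 to both in B cells. No paired analysis was possible between conditions because each has 1 library. Depth limits the rare receptors most: Tnfrsf9 had 230 UMIs in all cells used.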
